A study of Mus musculus with 32 samples.

Results

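The genes of meiotic recombination described here are Spo11, Iho1, Rec114, Mei4, Dmc1, Hsf2bp, Meiob, Msh4, Msh5 and Prdm9, 10 of the 21883 mouse genes that code for protein and lie on the 19 autosomes or a sex chromosome. They were chosen by name, and each was read over its RefSeq span on GRCm38 plus 5 kb on each side, called its window. The data were CUT&Tag profiles, in which an antibody brings a transposase to chromatin that carries a mark, of 32 samples of mouse ovarian oocytes in 16 groups of 2. The authors deposited 1 peak list per group, so every value below is a single value with no replicate error, and no test of a difference could be made. H3K27me3 had 10 lists and H2AK119ub had 6. The former is written by PRC2 and the latter by PRC1, where PRC stands for Polycomb repressive complex, and both go with silent genes.

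Wild-type (WT) oocytes came from a fetal stage (E18.5, in embryonic days) and from postnatal days 1, 6 and 7 (P1, P6, P7), those of P6 non-growing and those of P7 growing, with both marks at each stage. Age and growth cannot be told apart between P6 and P7. The PRC1ctrl groups carried Ring1-/-; Rnf2F/+; Ddx4-Cre and the PRC1cKO groups were labelled Ring1-/-; Ring1F/-; Ddx4-Cre, both profiled for H3K27me3 in P6 non-growing and P7 growing oocytes. All PRC1 groups therefore lacked Ring1, and because the PRC1cKO label names Ring1 where its control names Rnf2, it was not settled which gene was floxed there. The PRC2ctrl (EedF/+; Ddx4-Cre) and PRC2cKO (EedF/-; Ddx4-Cre) groups were P6 non-growing oocytes with both marks. Ddx4-Cre is a recombinase expressed in germ cells, and the controls carried it too. A histone mark is no check of a deletion, and none was made. In pooled cells, fewer oocytes with a mark and less of it per oocyte cannot be told apart.

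Meiotic recombination begins when SPO11 cuts both strands of DNA. The IHO1, REC114 and MEI4 proteins, on the chromosome axis, are needed for those cuts, and PRDM9 places them by methylating histone H3 at the sites it binds. DMC1 then pairs the resected ends with the homologous chromosome, helped by HSF2BP, which binds BRCA2, and by the single-strand binding protein MEIOB, and the MSH4-MSH5 pair holds the joined molecules so that crossovers can form. In female mice this takes place in the fetal ovary, and oocytes then rest in an arrested prophase from about birth. In other cells many germline genes are kept silent, in part by a variant PRC1 that contains the DNA-binding proteins MGA and E2F6.

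Start sites were taken from the RefSeq promoter table of GRCm38.p6, which matched 8 of the 10 genes and did not list Spo11 or Meiob. The promoters below, 250 bases before to 50 after the start, belong to the genes whose start site went from uncovered to covered by a peak, or back, in at least 1 of the 10 comparisons of stages or genotypes, and all lie on the minus strand: Iho1 at chr9:108431777-108432076, Dmc1 at chr15:79605060-79605359, Hsf2bp at chr17:32034459-32034758, Msh4 at chr3:153904842-153905141, Msh5 at chr17:35046573-35046872 and the 2 starts of Prdm9 at chr17:15563282-15563581 and chr17:15564305-15564604. They are written 5′ to 3′ as transcribed, with each CG dinucleotide, the pair that can be methylated and that Polycomb recruitment in mammals is tied to, in capitals.
Iho1: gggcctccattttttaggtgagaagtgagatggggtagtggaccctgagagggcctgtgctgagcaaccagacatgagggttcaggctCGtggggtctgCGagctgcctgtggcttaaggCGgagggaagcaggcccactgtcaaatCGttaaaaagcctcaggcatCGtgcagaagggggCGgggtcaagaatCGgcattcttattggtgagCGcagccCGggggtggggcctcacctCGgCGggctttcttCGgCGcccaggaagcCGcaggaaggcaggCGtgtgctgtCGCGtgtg
Dmc1: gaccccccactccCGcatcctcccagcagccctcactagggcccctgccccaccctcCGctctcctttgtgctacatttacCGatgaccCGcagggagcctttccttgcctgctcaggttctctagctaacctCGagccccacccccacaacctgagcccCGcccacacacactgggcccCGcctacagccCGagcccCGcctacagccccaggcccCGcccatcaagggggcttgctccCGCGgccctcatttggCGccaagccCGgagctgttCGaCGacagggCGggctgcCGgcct
Hsf2bp: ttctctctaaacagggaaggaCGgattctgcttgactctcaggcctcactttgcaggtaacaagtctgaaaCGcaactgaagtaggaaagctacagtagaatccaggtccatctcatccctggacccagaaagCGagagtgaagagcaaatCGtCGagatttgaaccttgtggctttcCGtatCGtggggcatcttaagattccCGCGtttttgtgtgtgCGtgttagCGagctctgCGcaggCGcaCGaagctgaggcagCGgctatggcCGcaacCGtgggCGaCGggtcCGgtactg
Msh4: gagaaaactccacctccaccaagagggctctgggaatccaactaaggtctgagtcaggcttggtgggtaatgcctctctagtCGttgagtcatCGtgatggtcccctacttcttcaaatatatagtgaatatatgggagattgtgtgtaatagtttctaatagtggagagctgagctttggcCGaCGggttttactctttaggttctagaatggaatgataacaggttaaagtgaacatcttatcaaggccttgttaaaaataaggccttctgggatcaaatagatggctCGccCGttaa
Msh5: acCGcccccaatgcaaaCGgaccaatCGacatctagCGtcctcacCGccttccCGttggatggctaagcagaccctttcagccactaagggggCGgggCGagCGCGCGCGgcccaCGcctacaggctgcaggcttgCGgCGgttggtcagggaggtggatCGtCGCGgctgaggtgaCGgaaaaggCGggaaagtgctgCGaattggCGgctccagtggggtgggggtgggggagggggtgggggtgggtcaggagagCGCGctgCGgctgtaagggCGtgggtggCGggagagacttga
Prdm9 start 1: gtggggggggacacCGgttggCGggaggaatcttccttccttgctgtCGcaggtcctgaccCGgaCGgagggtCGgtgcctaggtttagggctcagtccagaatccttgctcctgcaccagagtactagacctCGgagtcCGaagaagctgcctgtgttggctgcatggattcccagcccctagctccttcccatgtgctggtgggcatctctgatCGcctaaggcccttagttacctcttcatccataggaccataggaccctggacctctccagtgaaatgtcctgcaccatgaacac
Prdm9 start 2: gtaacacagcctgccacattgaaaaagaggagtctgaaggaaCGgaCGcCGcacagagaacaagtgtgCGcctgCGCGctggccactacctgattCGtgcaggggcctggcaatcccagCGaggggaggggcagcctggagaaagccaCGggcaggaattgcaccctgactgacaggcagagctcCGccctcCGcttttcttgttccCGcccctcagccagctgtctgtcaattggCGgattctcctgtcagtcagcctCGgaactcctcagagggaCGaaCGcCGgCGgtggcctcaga
The promoters differ in CG content. Msh5 had the most, with 27 CG in 300 bases, and Msh4 the fewest, with 6. In between, Hsf2bp had 20, Dmc1 had 18, Iho1 had 17, and Prdm9 had 9 at start 1 and 18 at start 2. Over all 32851 promoters of the table the median was 7, with quartiles of 3 and 20. The start sites of the other 2 matched genes, Mei4 (16 CG) and Rec114 (12 CG), were under no peak in any of the 16 lists. The motif CACGTG, which reads the same on both strands and which MGA can bind, was in 1 of the 9 promoters, that of Rec114 at position -19 from the start, and in 7.15% of all promoters. The E2F-type motif GGCGGGA, or TCCCGCC on the other strand, was in Msh5 at positions -66 and 34, in Prdm9 start 1 at -231 and in Prdm9 start 2 at -46, and in 11.3% of all promoters. The 2 motifs do not overlap in any of these promoters, and a match describes only the letters.

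The lists held 49615 to 83994 peaks and covered 244.2 to 728.3 Mb, and the lowest total signal of a peak ranged from 3754 to 20369, so a peak of the same total could be in 1 list and below the floor of another. Total signal is the authors' value summed over a peak. Its scaling is not stated, so signals are ranked only within a list, apart from a look at these floors, and the readout used here is the covered share, the percentage of a window that lies under peaks. As a check of the tissue, H3K27me3 was read in the windows of 10 oocyte genes in the WT lists. It was present in 8, 5, 3 and 3 of them at E18.5, P1, P6 and P7, beside 55.3%, 54.5%, 56.7% and 59.6% of all genes. It was present in 7 of 7 granulosa and stroma genes and 4 of 5 endothelium and blood genes in each WT list. At E18.5 the check by H3K27me3 therefore did not set the oocyte genes apart from those of endothelium and blood. H2AK119ub was present in 10, 6, 9 and 5 of the 10 oocyte genes at the same stages, beside 78.2%, 71.4%, 76.7% and 62.2% of all genes. It was present in 4, 3, 5 and 3 of the 5 endothelium and blood genes and in 7 of 7 granulosa and stroma genes each time. By this mark the oocyte genes were not set apart from those of endothelium and blood at any WT stage. A mark over a gene does not show which cells were present.

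For H3K27me3 the median covered share of the 10 windows was 3.03%, 0%, 5.33% and 8.64% at E18.5, P1, P6 and P7 in WT, beside 4.03%, 3.74%, 5.61% and 7.97% over all genes, and in the other 6 lists it was 1.22% to 9.67%, beside 0% to 4.56%. Hsf2bp and Msh4 had no H3K27me3 peak in any of the 10 lists, as held for 26% of all genes. Meiob had 1 only in PRC1cKO P7, and Dmc1 only in the WT and PRC1ctrl lists of P7. Rec114 and Prdm9 were touched by a peak in all 10 lists, as were 36% of all genes, Iho1, Mei4 and Msh5 in 9, and Spo11 in 4. H2AK119ub reached every gene in at least 2 of 6 lists, and Spo11, Rec114 and Msh5 in all 6. The shares of all genes for these H2AK119ub counts were not computed. Its median covered share of the 10 windows was 17.0%, 0.90%, 12.4% and 2.50% at the WT stages. Over all genes it was 35.7%, 23.5%, 35.7% and 5.38%. In PRC2ctrl and PRC2cKO the median was 9.63% and 2.75%, beside 18.3% and 13.9% over all genes.

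**Figure D1:**
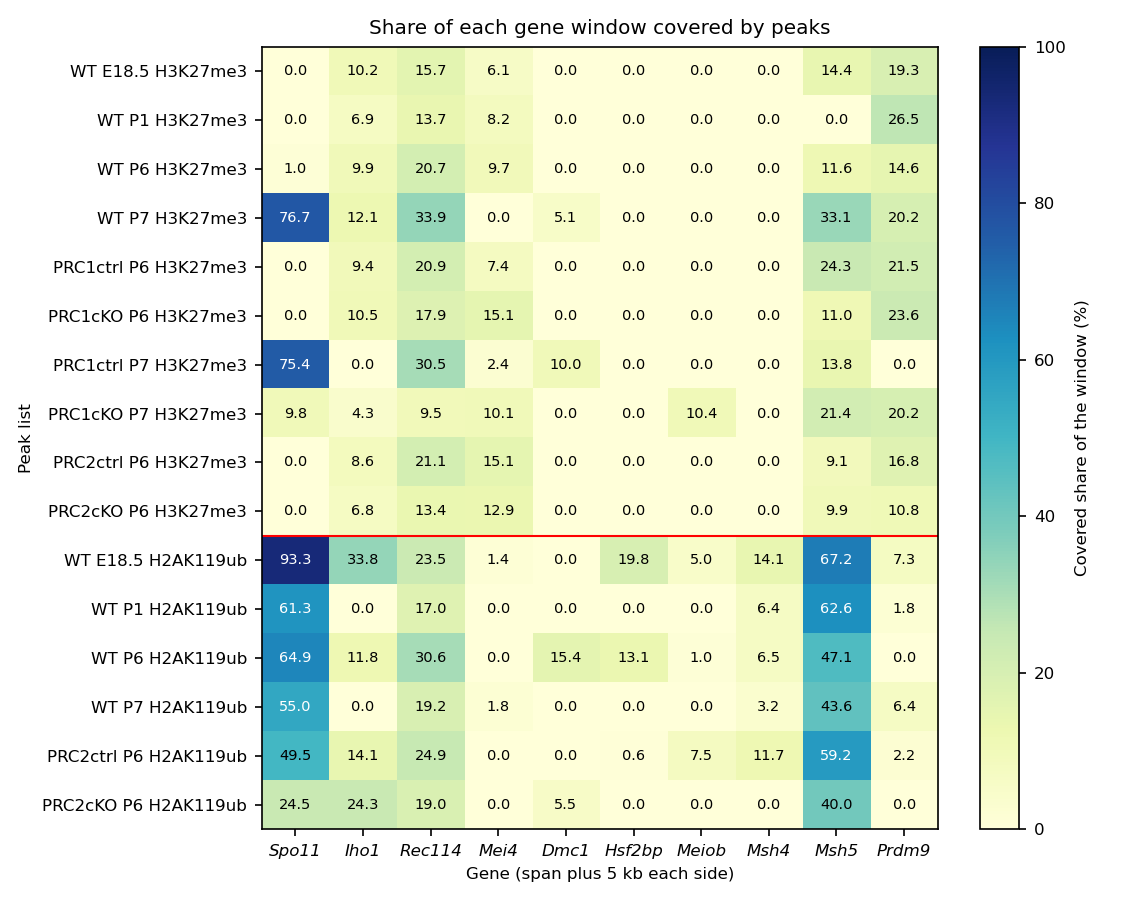
Percentage of each gene window (columns; gene span plus 5 kb on each side) covered by peaks in each of the 16 lists (rows), printed in each cell and shown by colour from 0 to 100%; the red line divides H3K27me3 (above) from H2AK119ub (below). Spo11 stands at 76.7% and 75.4% H3K27me3 in the WT and PRC1ctrl lists of P7 and at 9.81% or less in the other 8, while Hsf2bp and Msh4 stay at 0 in all 10.

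Counted by list, H3K27me3 touched 5, 4, 6 and 6 of the 10 windows at the 4 WT stages in order of age, beside 55.3%, 54.5%, 56.7% and 59.6% of all genes. H2AK119ub touched 9, 5, 8 and 6, beside 78.2%, 71.4%, 76.7% and 62.2%. In PRC1ctrl and PRC1cKO the H3K27me3 counts were 5 and 5 at P6 (55% and 55.1% of all genes) and 6 and 7 at P7 (54% and 54.6%). In PRC2ctrl and PRC2cKO they were 5 and 5 (55.2% and 48.7%), and for H2AK119ub 8 and 5 (71% and 69.7%). The H3K27me3 counts, 4 to 7 of 10, lie near the shares of all genes, although the windows of the 10 genes were longer, with a median of 49.6 kb against 27.2 kb.

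A gene was called up or down between 2 lists when its covered share moved by at least 20 percentage points. A gene with a share below 20% in the first list could therefore not be called down. In WT oocytes no recombination gene reached this for H3K27me3 from E18.5 to P1 (3.73% of all genes up, 1.98% down) or from P1 to P6 (6.17% up, 4.03% down). From P6 to P7 2 of 10, Spo11 and Msh5, were up and none was down, beside 14.7% of all genes up and 6.85% down. For H2AK119ub, Iho1 and Spo11 were down from E18.5 to P1 (19.2% of all genes down, 3.12% up), none moved from P1 to P6 (18.8% up, 4.36% down), and none from P6 to P7, where 49% of all genes were down and 0.297% up. At P6 only Spo11 (64.9%), Rec114 (30.6%) and Msh5 (47.1%) had at least 20 points of H2AK119ub to lose. Below that, Iho1 (11.8%), Dmc1 (15.4%), Hsf2bp (13.1%) and Meiob (1.04%) went to 0% at P7 without a call. The H2AK119ub list of P7 covered the least genome of all, 244.2 Mb against 728.3 Mb at P6.

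**Figure D2:**
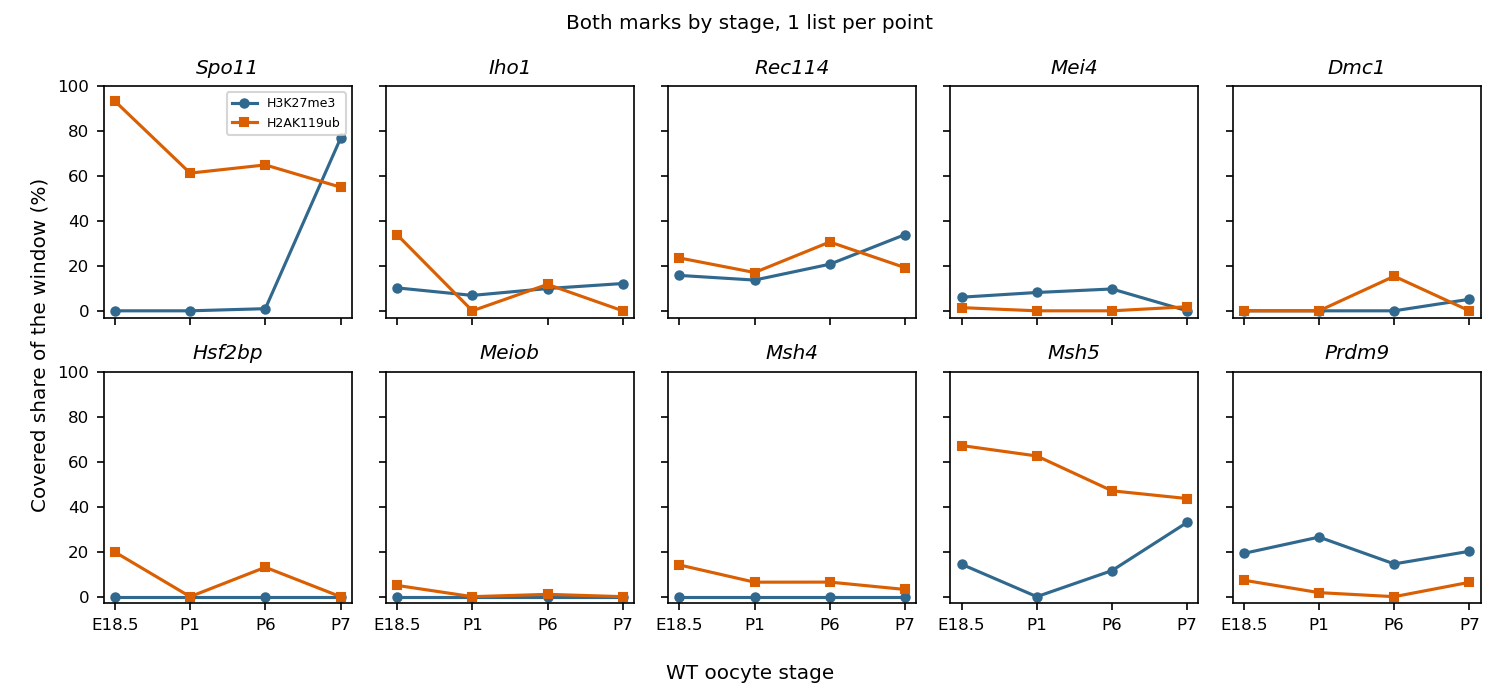
Covered share of each window in percent (vertical axis) at the 4 WT stages (horizontal axis), with H3K27me3 as circles and H2AK119ub as squares, 1 list per point and no error. The H3K27me3 line of Spo11 climbs from 0.95% at P6 to 76.7% at P7, and its H2AK119ub line starts at 93.3% at E18.5.

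Spo11 (chr2:172977379-172993576), which encodes the enzyme that makes the breaks, showed the widest span of H3K27me3 values of the 10 genes. Its covered share was 0% at E18.5, 0% at P1, 0.95% at P6 and 76.7% at P7 in WT, 0% at P6 and 75.4% at P7 in PRC1ctrl, 0% at P6 and 9.81% at P7 in PRC1cKO, and 0% in both PRC2 groups. The 2 high lists are thus the P7 growing oocytes of WT and PRC1ctrl, and the PRC1cKO list of the same age is far below them. In WT P7 a peak of 19.6 kb, with a total signal of 136704 (88.5th percentile of its list), ran from -3.70 to 15.9 kb, counted from the lower-coordinate end of the gene, over almost the whole gene. A further peak of 46.3 kb over the growth factor gene Bmp7 ended at -4.54 kb. In PRC1ctrl P7 a peak of 19.8 kb with a total of 77890 (90.3rd percentile) lay over nearly the same bases. In PRC1cKO P7 the peak was 2.57 kb wide, from -0.714 to 1.86 kb, with a total of 6563 (21.2nd percentile). That total is below the lowest of the PRC1ctrl P7 list, 7218, whereas the floor of the PRC1cKO P7 list was 5094.

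From P6 to P7 the covered share of Spo11 moved by 75.7 points in WT, a step that 0.494% of all genes matched or exceeded, by 75.4 points in PRC1ctrl (0.238% of genes) and by 9.81 points in PRC1cKO (11.1% of genes). The WT and PRC1ctrl P7 lists differed by -1.26 points. Between PRC1ctrl and PRC1cKO at P7 the share dropped by 65.6 points, and 0.909% of all genes dropped as far or further. With lists trimmed to equal covered length this drop was from 75.4% to 0%, and over the gene span alone it was from 97.6% to 11.5%.

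H2AK119ub was present over Spo11 long before. Its covered share was 93.3%, 61.3%, 64.9% and 55.0% at E18.5, P1, P6 and P7 in WT, 49.5% in PRC2ctrl and 24.5% in PRC2cKO. At E18.5 it held a peak of 7.67 kb over the lower gene end and 1 of 24.0 kb that reached the neighbouring gene Rae1, and at P1, P6 and P7 a gap in the gene body began 3.06 to 3.45 kb and ended 7.53 to 8.45 kb from the lower end. The step from E18.5 to P1 was -32.0 points, and that from P1 to P6 was 3.64 points. When the lists were trimmed to equal covered length these steps were larger, from 64.0% to 1.68% (-62.3 points) and from 1.68% to 32.3% (30.6 points, then a call). From P6 to P7 the step was -9.89 points, but 22.7 points, from 32.3% to 55.0%, at equal covered length, so its direction rests on that setting. From PRC2ctrl to PRC2cKO it dropped by 25.0 points, the only call among the 10 genes in that comparison (10.8% of all genes down, 2.74% up). The call was lost over the gene span alone, where the share went from 49.2% to 32.3%.

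**Figure D3:**
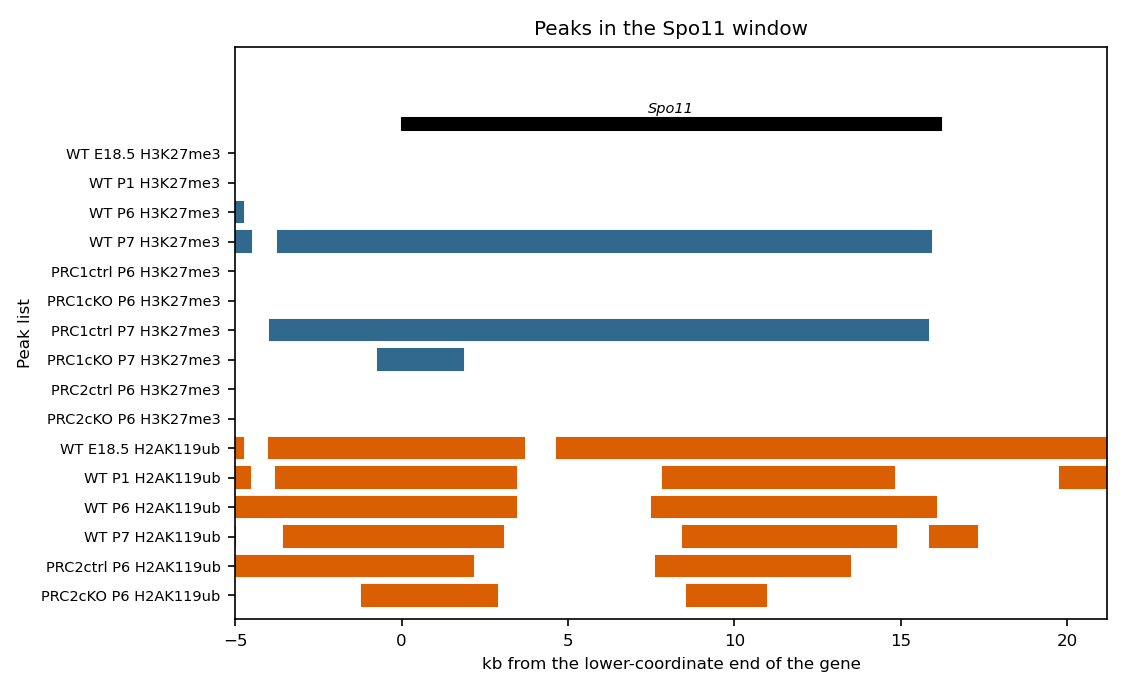
Peaks in the Spo11 window (bars; horizontal axis in kb from the lower-coordinate end of the gene) in each of the 16 lists, with H3K27me3 in blue, H2AK119ub in orange and the gene in black. The gene lies under a peak of 19.6 kb in WT P7 and of 19.8 kb in PRC1ctrl P7 and under 2.57 kb in PRC1cKO P7, while H2AK119ub peaks are present in all 6 lists of that mark.

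At WT P7 both marks lay over the same bases of Spo11 for 13.0 kb, which is 64.9% of its H3K27me3 length. Of the 10 genes, those with each mark somewhere in the window numbered 5, 2, 4 and 4 at E18.5, P1, P6 and P7 (48.9%, 47.7%, 51.2% and 50.7% of all genes) and 4 and 3 in PRC2ctrl and PRC2cKO (48.2% and 41%). Those with at least 1 kb under both marks at once numbered 3, 1, 2 and 4 (44.2%, 43.6%, 47.5% and 44.6% of all genes) and 2 and 3 (44.2% and 36.7%). Rec114 was among them in every group, with 21.1 to 32.0 kb shared. At P7 the others were Spo11, Msh5 (6.67 kb) and Prdm9 (2.00 kb).

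The partners of SPO11 had their H3K27me3 outside their start sites. Iho1 (chr9:108403492-108431841) had covered shares of 10.2%, 6.86%, 9.91% and 12.1% at the 4 WT stages, 9.40% and 10.5% in PRC1ctrl and PRC1cKO at P6, 0% and 4.27% at P7, and 8.58% and 6.81% in PRC2ctrl and PRC2cKO. PRC1ctrl P7 is the list without a peak, and the other 9 lie between 4.27% and 12.1%. In each of those 9 the peak overlapped the neighbouring gene BC048562, in PRC2cKO by only 0.182 kb. The window holds only 0.36 kb of that gene, so most of the cover within the window lay outside it. At E18.5 the peak was 9.035 kb wide, with 3.91 kb in the window. It ran on to chr9:108441964, and most of it lay in BC048562. In each of the 9 lists the peak stopped short of the Iho1 start site, by 0.359 kb in WT P7 and by 1.00 to 3.38 kb in the others. H2AK119ub covered 33.8% of the window at E18.5, 0% at P1, 11.8% at P6 and 0% at P7, and 14.1% and 24.3% in PRC2ctrl and PRC2cKO. A peak of 6.12 kb lay on the start site at E18.5, as did 1 of 5.40 kb in PRC2ctrl and 1 of 14.5 kb in PRC2cKO. The step of -33.8 points from E18.5 to P1 passed the threshold with the flanks but not over the gene span alone, with the peaks at or above the median signal of each list or at equal covered length.

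Rec114 (chr9:58652856-58822706) lies next to Hcn4, a pacemaker channel gene, and its H3K27me3 peaks lay on that side, starting 91.8 kb or more from the lower-coordinate end in every list. Its H3K27me3 covered shares were 15.7%, 13.7%, 20.7% and 33.9% at the WT stages, 20.9% and 17.9% in PRC1ctrl and PRC1cKO at P6, 30.5% and 9.54% at P7, and 21.1% and 13.4% in PRC2ctrl and PRC2cKO. The P7 lists of WT and PRC1ctrl are the highest, and PRC1cKO P7 is the lowest. In WT P7 a peak of 75.3 kb with a total signal of 861037 (99.6th percentile) joined the end of Rec114 to Hcn4, and 4 smaller peaks lay inside the gene span. The annotated start site, chr9:58741559 on the minus strand, lies inside that span. In every list all H3K27me3 peaks lay upstream of it, and none lay on the part transcribed from it. The nearest stopped 3.10 kb from the start in WT P7 and 4.12 kb away in PRC1ctrl P7. In PRC1cKO P7 2 peaks of 5.15 and 12.0 kb were left and the nearest was 53.9 kb away. The difference between PRC1ctrl and PRC1cKO at P7 was -21.0 points, just past the threshold. H2AK119ub over Rec114 stayed between 17.0% and 30.6% in all 6 lists. It too lay mostly on the Hcn4 side, but 3 lists also had it at the opposite end, from 3.89 to 8.75 and 14.96 to 23.2 kb in WT P6, from 20.2 to 23.2 kb in PRC2ctrl and from 20.1 to 23.2 kb in PRC2cKO.

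Mei4 (chr9:81863670-82206007) is the longest of the 10 genes, at 342 kb, and its H3K27me3 consisted of small peaks far from the start site. There were 7, 7, 9 and 0 of them at the WT stages, 6 and 8 in PRC1ctrl and PRC1cKO at P6, 3 and 13 at P7, and 9 and 8 in PRC2ctrl and PRC2cKO. Widths ranged from 1.28 to 13.9 kb, and no peak came closer than 66.6 kb to the start. The covered share was 6.06%, 8.15%, 9.72% and 0% in WT, and at P7 it was 2.43% in PRC1ctrl and 10.1% in PRC1cKO. Mei4 was thus lower in the P7 lists of WT and PRC1ctrl than in the others, the reverse of Spo11 and Rec114, with steps below 20 points throughout. The WT P7 list also had the highest floor of the 10 H3K27me3 lists, a lowest total signal of 14139. H2AK119ub reached 1.41% at E18.5 and 1.80% at WT P7 and was absent from the other 4 lists.

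**Figure D4:**
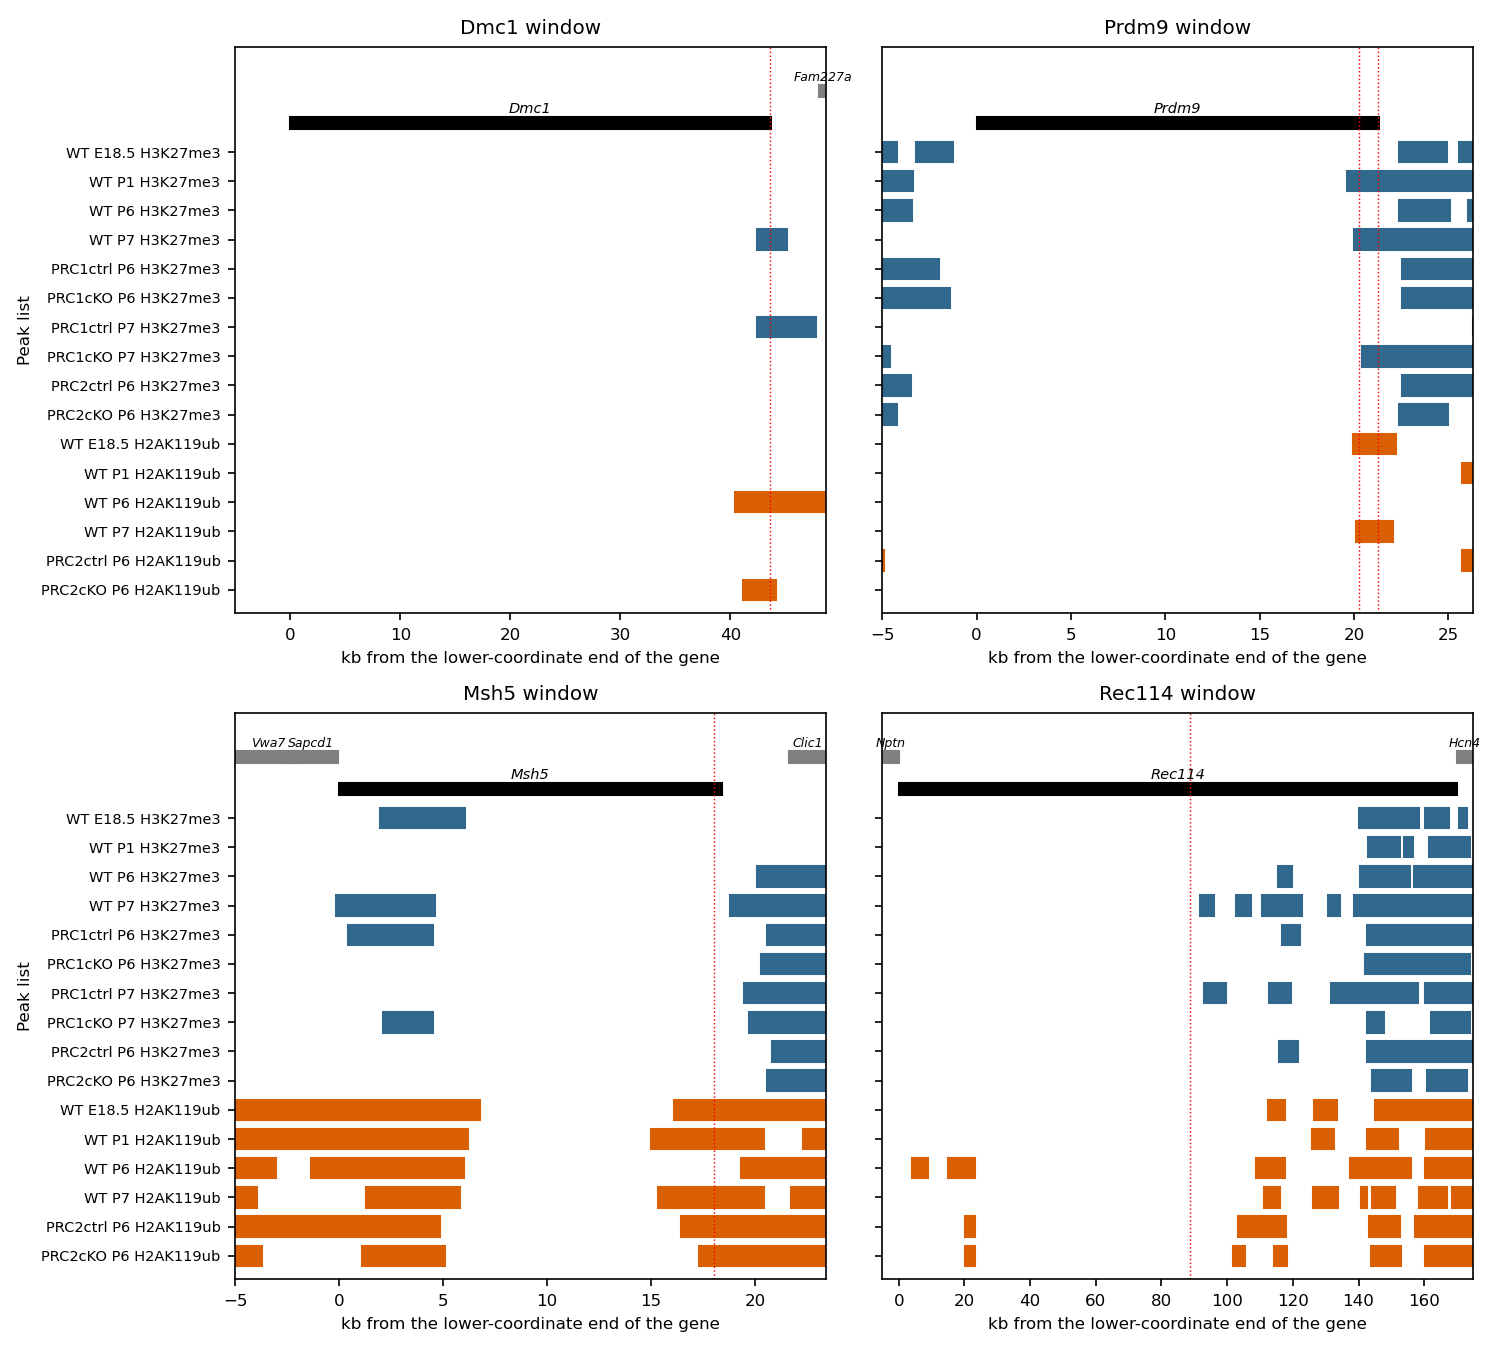
Peaks in the windows of Dmc1, Prdm9, Msh5 and Rec114 (bars; horizontal axes in kb from the lower-coordinate end of each gene) in the 16 lists, H3K27me3 in blue and H2AK119ub in orange; black bars are the genes, grey bars neighbouring genes and dotted red lines the annotated start sites. Peaks reach the start of Dmc1 in 4 lists, lie on both sides of Prdm9 and at both ends of Msh5, and the H3K27me3 peaks of Rec114 lie on its Hcn4 side.

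Among the genes of strand exchange, Dmc1 (chr15:79561497-79605159), which encodes the meiotic recombinase, had a mark in 4 of 16 lists, and each time over its start site. H3K27me3 covered 5.14% of the window in WT P7 and 10.0% in PRC1ctrl P7 and 0% in the other 8 lists, PRC1cKO P7 included. The WT P7 peak was 2.76 kb wide with a total signal of 15145, in the 5.85th percentile of its list and close to its floor of 14139. The PRC1ctrl P7 peak was 5.38 kb wide with a total of 19668 (55.4th percentile). In the other 8 lists the nearest H3K27me3 peak was 51.96 to 84.97 kb from the start. H2AK119ub covered 15.4% in WT P6, through a peak of 48.1 kb that also held the neighbour Fam227a, and 5.50% in PRC2cKO through a peak of 2.95 kb. PRC2ctrl, WT E18.5, WT P1 and WT P7 had none. None of these steps reached 20 points of the window. Over 1 kb to each side of the start site, the H3K27me3 share went from 0% to 100% between WT P6 and P7 and from 100% to 0% between PRC1ctrl and PRC1cKO at P7. Under that setting 10.4% of all genes were up in the former comparison and 9.42% down in the latter.

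Hsf2bp (chr17:31944769-32034895) had no H3K27me3 and H2AK119ub in 3 of 6 lists. The covered share was 19.8% at E18.5, 0% at P1, 13.1% at P6 and 0% at P7 in WT, 0.64% in PRC2ctrl and 0% in PRC2cKO. At E18.5 it lay in 4 peaks, the widest 7.30 kb at the lower gene end and 1 of 6.54 kb over the start site. At P6 the 2 peaks in the window lay from -4.98 to 0.597 and from 22.5 to 30.0 kb from the lower end, far from the start. The H2AK119ub peak nearest to the start in that list was 20.4 kb away, outside the window. The step of -19.8 points from E18.5 to P1 stands just short of the threshold. The nearest H3K27me3 peak in any list was 30.2 kb from the start site.

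Meiob (chr17:24804301-24839788) had H2AK119ub over 5.00%, 0%, 1.04% and 0% of its window at the WT stages, 7.52% in PRC2ctrl and 0% in PRC2cKO. The peaks of 2.27 kb at E18.5 and 2.06 kb in PRC2ctrl lay on the lower gene end. H3K27me3 was found in PRC1cKO P7 alone, in peaks of 2.08 and 2.64 kb inside the gene with totals of 8310 and 10121, together 10.4% of the window. Both exceed the lowest total of the PRC1ctrl P7 list, 7218, and both lie below that of WT P7, 14139.

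The crossover genes differed from each other. Msh4 (chr3:153857141-153906138) had no H3K27me3 in 10 lists, and the nearest peak was 31.9 kb from its start. H2AK119ub covered 14.1%, 6.45%, 6.48% and 3.21% at E18.5, P1, P6 and P7, 11.7% in PRC2ctrl and 0% in PRC2cKO. A peak of 3.49 kb, 3.80 kb, 3.82 kb and 4.75 kb lay on the start in the first 3 WT lists and in PRC2ctrl. At P7 the only peak in the window, of 1.89 kb, lay from 26.1 to 28.0 kb from the lower-coordinate end, off the start. The H2AK119ub peak nearest to the start in that list lay outside the window, 16.6 kb away. In PRC2cKO there was none in the window.

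Msh5 (chr17:35028605-35046997) lies in a dense stretch of genes, and 23.6% of its window belongs to the neighbours Vwa7, Sapcd1 and Clic1. H2AK119ub covered 67.2%, 62.6%, 47.1% and 43.6% at the WT stages, 59.2% in PRC2ctrl and 40.0% in PRC2cKO. It lay on the start site in 5 of 6 lists, and in WT P6 the nearest peak was 1.31 kb away. H3K27me3 covered 14.4%, 0%, 11.6% and 33.1% in WT, 24.3% and 11.0% in PRC1ctrl and PRC1cKO at P6, 13.8% and 21.4% at P7, and 9.08% and 9.91% in PRC2ctrl and PRC2cKO. It covered the start site in no list. In WT P7 a peak of 38.7 kb ran from 0.767 kb beyond the start across Clic1 and the Ly6g6 genes, and a second of 4.78 kb lay over the far gene end. The step from WT P6 to P7, 21.4 points, was close to the background, since 13.9% of all genes moved as far or further. It fell under the threshold with the peaks at or above the median signal and at equal covered length, and PRC1ctrl moved by -10.4 points over the same interval.

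Prdm9 (chr17:15543072-15564374) was flanked by H3K27me3. Its covered share was 19.3%, 26.5%, 14.6% and 20.2% at the WT stages, 21.5% and 23.6% in PRC1ctrl and PRC1cKO at P6, 0.00639% and 20.2% at P7, and 16.8% and 10.8% in PRC2ctrl and PRC2cKO. PRC1ctrl P7 stands apart from the other 9, with 2 bases of a small peak at the window's edge. Peaks of up to 31.9 kb lay upstream of the gene, and in 8 lists a peak lay beyond the other gene end, with its near edge between -4.58 and -1.28 kb of it. In WT P1 and WT P7 the upstream peak reached over both start sites, and in PRC1cKO P7 over start 2. In 6 of the other 7 lists it stopped 1.12 to 1.29 kb short of the start, and in PRC1ctrl P7 the nearest base was 5.02 kb away. H2AK119ub covered both starts at E18.5 (7.32% of the window) and at WT P7 (6.40%), in peaks of 2.29 and 2.00 kb, and neither start in the other 4 lists.

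In the PRC1 comparison at P6 none of the 10 genes was up or down for H3K27me3 (3.94% of all genes up, 6.2% down). At P7 Prdm9 was up by 20.2 points and Spo11 and Rec114 were down, beside 6.84% of all genes up and 11.1% down. The call for Prdm9 rests on the PRC1ctrl P7 list, since from WT P7 to PRC1ctrl P7 its share also dropped by 20.2 points (11.3% of all genes down, 0.992% up). It was lost over the gene span alone, where the share went from 0% to 4.21%. That of Rec114 was lost when only 1 kb to each side of the start was read, where Dmc1 was down instead (9.42% of all genes down under that setting). In the PRC2 comparison none was called for H3K27me3 (1.19% up, 12.5% down). Only Rec114, at 21.1% in PRC2ctrl, had at least 20 points to lose, and it went to 13.4%. For the other genes a down call was not possible, so their lack of one does not show that H3K27me3 was kept.

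**Figure D5:**
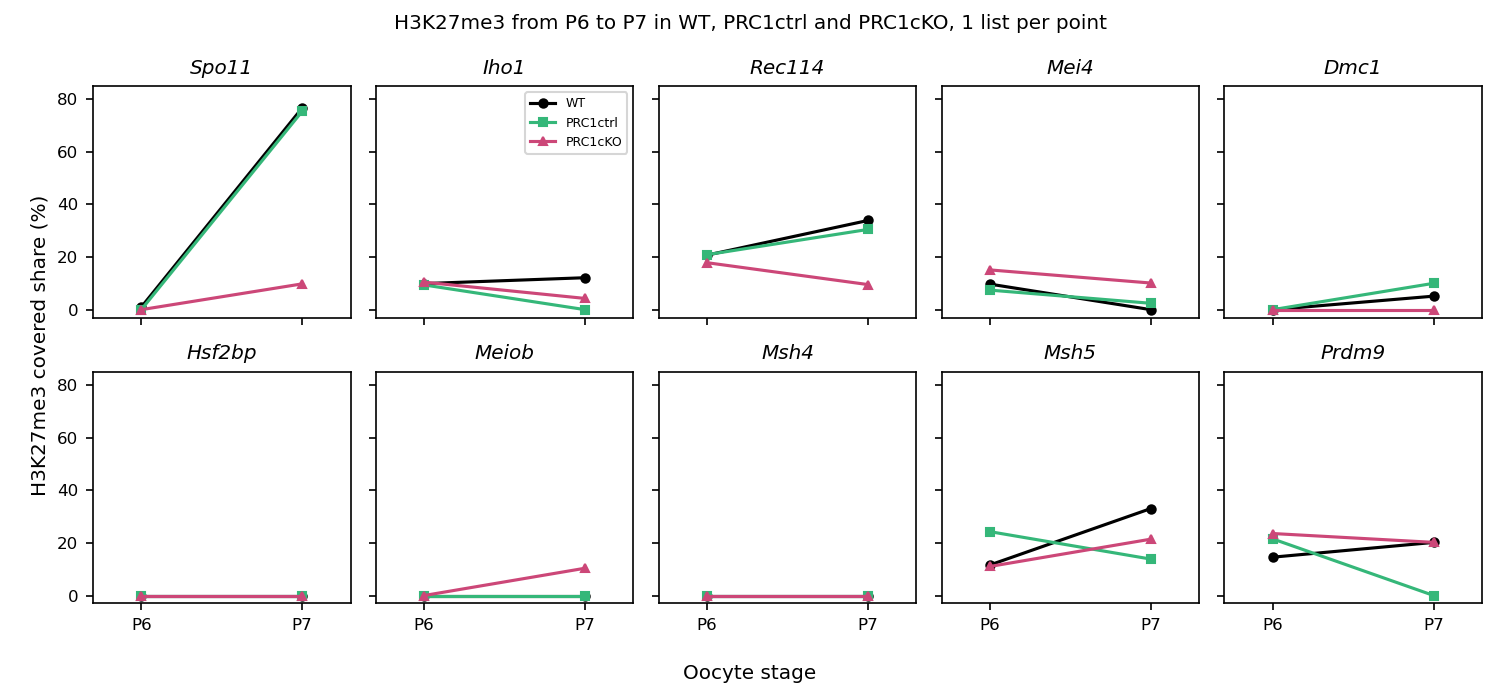
H3K27me3 covered share of each window in percent (vertical axis) at P6 and P7 (horizontal axis) in WT (black circles), PRC1ctrl (green squares) and PRC1cKO (pink triangles), 1 list per point and no error. For Spo11 the WT and PRC1ctrl lines reach 76.7% and 75.4% and the PRC1cKO line 9.81%, whereas for Msh5 and Prdm9 the WT and PRC1ctrl lines move in opposite directions.

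Within each PRC1 genotype, the step from P6 to P7 put Spo11 up and Prdm9 down in PRC1ctrl (9.72% of all genes up, 11.4% down) and no gene in PRC1cKO (5.42% up, 9.21% down). The control lists of P6 gave no call among the 10 genes, neither WT against PRC1ctrl (3.67% up, 5.44% down) nor WT against PRC2ctrl for H3K27me3 (3.3% up, 2.41% down) or H2AK119ub (1.51% up, 24.7% down).

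Other genes of the pathway were read in the same way: 45 genes of recombination, of 46 named, and 14 of the chromosome axis. For H3K27me3 from WT P6 to P7, 3 of the 45 were up and 2 down (14.7% of all genes up, 6.85% down). Prr19, a crossover factor, went from 31.2% to 69.3%, Gm960, which encodes the TOPOVIBL partner of SPO11, from 4.73% to 34.2%, and Swsap1, a recombinase helper, from 52.9% to 79.9%. Cntd1, a crossover factor, went from 26.7% to 0% and Rad51ap2 from 20.7% to 0%. Of the 14 axis genes 1 was up, Rec8, which encodes the meiotic cohesin subunit. Its share went from 0% to 46.4% in WT and from 0% to 34.8% in PRC1ctrl, and in PRC1cKO P7 it was 0%, so that Rec8 was called in the same comparisons as Spo11 for H3K27me3. From P6 to P7 in PRC1ctrl, 2 of the 45 were down and none up (9.72% of all genes up, 11.4% down), Swsap1 from 50.7% to 15.5% and Rad51ap2 from 22.0% to 0%. In PRC1cKO against PRC1ctrl at P7 the same 2 genes were up and none was down (6.84% up, 11.1% down), Swsap1 from 15.5% to 51.0% and Rad51ap2 from 0% to 21.2%. From WT P7 to PRC1ctrl P7, 2 were down (0.992% up, 11.3% down), Swsap1 from 79.9% and Prr19 from 69.3% to 32.5%, so for Swsap1 the PRC1ctrl list was the low one, as for Prdm9.

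For H2AK119ub from E18.5 to P1, 12 of 45 were down and none up (19.2% of all genes down, 3.12% up), and none of the 14 axis genes moved. The largest steps were at Rpa2, a subunit of the single-strand binding protein RPA (73.1% to 13.5%), Psmc3ip, a DMC1 cofactor (57.0% to 0%), the nuclease subunit gene Eme1 (47.1% to 0%), Cdk2, a kinase found at crossover sites (87.0% to 43.9%), Brca2 (42.2% to 4.40%) and 4930432K21Rik, known as Brme1, the partner of HSF2BP (56.3% to 21.4%). From P1 to P6, 6 of 45 were up and 2 down (18.8% of all genes up, 4.36% down). The 2 down were Prr19 (91.2% to 31.8%), the largest step among the 45 from P1 to P6, and Swsap1 (81.1% to 51.2%). Those up included 4930432K21Rik (21.4% to 55.4%), Zswim7, which encodes the partner of SWSAP1 (0% to 31.9%), and Psmc3ip (0% to 30.9%). Of the axis genes Syce3, of the synaptonemal complex, was up (43.4% to 70.1%).

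From P6 to P7, 7 of 45 were down and 2 up, where 49% of all genes were down and 0.297% up. Those down included 4930432K21Rik (55.4% to 0%), Cdk2 (57.2% to 6.15%), the nuclease subunit gene Mus81 (79.3% to 40.5%) and the exonuclease gene Exo1 (33.0% to 0%). The 2 up were Prr19 (31.8% to 55.3%) and Swsap1 (51.2% to 72.7%), the same genes that were down before, which are named here after their values were seen. Of the 14 axis genes 3 were down, among them Syce3 (70.1% to 26.5%) and Rec8 (100% to 56.9%).

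In PRC2cKO against PRC2ctrl, 2 of 45 were down for H2AK119ub, Cdk2 (31.1% to 0%) and Eme1 (22.5% to 0%), as were 2 of 14 axis genes, Syce1 (38.9% to 5.13%) and Sycp3 (31.7% to 0%), and none was up (10.8% of all genes down, 2.74% up). In WT P6 Syce1 stood at 5.77% and Sycp3 at 0%, so for both the PRC2ctrl list was the high one. From WT to PRC2ctrl at P6, 7 of 45 were down and none up, and 1 axis gene was down and those 2 up (24.7% of all genes down, 1.51% up). The largest falls were those of 4930432K21Rik (to 10.8%), Zswim7 and Psmc3ip (both to 0%) and Syce3 (to 40.2%). For H3K27me3 Prr19 was down in PRC2cKO (26.9% to 0%), 1 of 45 beside 12.5% of all genes. From PRC1ctrl to PRC1cKO at P6 none of these genes was called, and neither was any for H3K27me3 from E18.5 to P1 or from P1 to P6.

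The genes most like Spo11 and Msh5 across the 16 lists were found by the mean absolute difference in covered share. For Spo11 these were Kctd7 (5.14 points), Radil (5.70) and Sap18b (6.27). At P7 their H3K27me3 shares in WT, PRC1ctrl and PRC1cKO were 62.3%, 71.8% and 0% for Kctd7, 87.5%, 56.0% and 6.09% for Radil and 81.8%, 67.6% and 0% for Sap18b. For Msh5 they were Nisch (6.03), Riiad1 (7.60) and Lifr (7.66).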

How the data were processed

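CUT&Tag of H3K27me3 and H2AK119ub was done on 32 samples in 16 groups of 2, and groups were taken from the sample titles. Each reaction received S2 cells of Drosophila in a set proportion, such as 2000 for 1000 oocytes, per the labels' protocols, and read length was 150 bp. The submitters' processing notes list SAMtools, deepTools, Bowtie2, Trim Galore 0.6.10 and Picard 3.0.0 and the genome builds dm6, mm10 and GRCm38, with no role for any. The authors deposited 1 peak list per group, with a total signal and a highest signal per peak. Judged from the values, both are whole numbers, and the total is never below the highest. The sources used here do not give the peak caller, its threshold, the scaling of the signal or how 2 samples became 1 list. Read depth is unknown from these files.

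Peaks were laid over RefSeq genes of GRCm38.p6 with Python 3.11.15, numpy 2.4.6 and pandas 2.3.3, and a gene is marked from 1 bp of peak in its span plus 5 kb each side. Up or down means a move of at least 20 percentage points in the covered share, which needs no signal scale. With 1 list per group there was no test, and the share of all 21883 genes called the same way is printed beside the counts. For start sites it covers the 17491 genes in the promoter table, and for windows without neighbouring genes it was not computed. The coverage code was checked on simulated windows. The genes, lists and thresholds were chosen with earlier results of these data known. All 10 genes are named. Genes of the 2 other lists, pooled, are named when up or down, at most 6 per comparison by size of the step in either direction, with the exceptions stated, and the 3 most like genes are named for the 2 genes of widest H3K27me3 range. Promoters and start sites came from RefSeq, whose table gave 8 of the 10 genes. For Spo11 and Meiob both gene ends stood in for the start site. The alternatives were the gene span with no flank, the peaks at or above the median total signal, lists trimmed to equal covered length within a mark, 1 kb each side of the start site, and, added after seeing the data, windows without the bases of neighbouring genes.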

Additional observations from a re-analysis of the deposited data

Results flagged for a closer look

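In 6 cases the H3K27me3 covered share of a gene moved by at least 5 percentage points in opposite directions in 2 groups under the same contrast. With 1 list per group the difference was not tested in any of them. From P6 to P7 Msh5 moved by 21.4 points in WT and -10.4 points in PRC1ctrl, and Prdm9 by 5.6 points in WT and -21.5 points in PRC1ctrl. Over the same interval Rec114 moved by 13.2 points in WT and 9.6 points in PRC1ctrl, against -8.3 points in PRC1cKO, which counts as 2 cases. Msh5 moved by -10.4 points in PRC1ctrl and 10.4 points in PRC1cKO. The step from PRC1ctrl to PRC1cKO at Msh5 was -13.2 points at P6 and 7.6 points at P7. The PRC1ctrl P7 list, which enters 5 of these 6 cases, covered 491.6 Mb, against 618.8 Mb in WT P7 and 463.3 Mb in PRC1cKO P7, and its part in these values was not tested.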

How the results depend on the processing

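Of the 20 counts of genes up or down in the 10 comparisons, 5 moved with no flank, 5 with the peaks at or above the median signal, 6 at equal covered length, 10 with 1 kb each side of the start site and 0 without the bases of neighbouring genes. A count that kept its number could still change genes. At equal covered length the 2 down in H2AK119ub from E18.5 to P1 were Spo11 and Msh5, without Iho1 (9.57% of all genes down). With the start site setting the 2 down in H3K27me3 from PRC1ctrl to PRC1cKO at P7 were Spo11 and Dmc1, without Rec114 (9.42%). Spo11 was up in H3K27me3 from WT P6 to P7, and down from PRC1ctrl to PRC1cKO at P7, under each of these 5 settings. Its window holds no bases of neighbouring genes, so leaving those out could not change its result. For Spo11 the start site setting read both gene ends. The cause of the other moves was not tested. The percentage after each count is the share of all genes called that way under the same setting.

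With no flank, the counts became 1 down in H3K27me3 from E18.5 to P1 (Msh5, 2.73%), 1 down in H2AK119ub from E18.5 to P1 (Spo11, 18.4%), 1 down from PRC1ctrl to PRC1cKO at P6 (Msh5, 6.6%), 0 up at P7 (6.27%), where Prdm9 was lost, and 0 down in H2AK119ub from PRC2ctrl to PRC2cKO (10.7%), where Spo11 was lost. With the peaks at or above the median signal, they became 1 up from E18.5 to P1 (3.79%) and 1 down from P1 to P6 (4.22%) in H3K27me3, Prdm9 both times, 1 up from P6 to P7 (Spo11, 13.5%), 1 down in H2AK119ub from E18.5 to P1 (Spo11, 18.1%) and 2 down from PRC2ctrl to PRC2cKO (Spo11 and Msh5, 10.9%). At equal covered length, they became for H3K27me3 1 down from P1 to P6 (Prdm9, 4.31%) and 1 up from P6 to P7 (Spo11, 10.9%), and for H2AK119ub 1 up (Spo11, 8.03%) and 1 down (Msh5, 7.96%) from P1 to P6, 2 up from P6 to P7 (Spo11 and Msh5, 10.8%) and 2 down from PRC2ctrl to PRC2cKO (the same 2 genes, 6.5%).

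With 1 kb each side of the start site, they became for H3K27me3 1 up from E18.5 to P1 (5.88%) and 1 down from P1 to P6 (4.32%), Prdm9 both times, and 4 up from P6 to P7 (Spo11, Iho1, Dmc1 and Prdm9, 10.4%). For H2AK119ub they became 5 down from E18.5 to P1 (Spo11, Iho1, Hsf2bp, Prdm9 and Meiob, 17.7%), 2 up (Spo11 and Dmc1, 11.2%) and 1 down (Msh5, 5.75%) from P1 to P6, 2 up (Msh5 and Prdm9, 3.58%) and 2 down (Dmc1 and Msh4, 29.3%) from P6 to P7, and 1 up (Dmc1, 6.79%) and 2 down (Msh4 and Meiob, 11.4%) from PRC2ctrl to PRC2cKO. No paired analysis was possible because each group had 1 pooled list, and leaving out a replicate was not possible for the same reason. Depth is unknown, and a peak under the floor of a list is not shown to be absent.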
